A study of Mus musculus with 2 samples.

Results

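The genes described here are 4 receptors for immunoglobulin G, Fcgr1, Fcgr2b, Fcgr3 and Fcgr4, and 6 genes of the Ms4a family, Ms4a4b, Ms4a4c, Ms4a6b, Ms4a6c, Ms4a6d and Ms4a7. They were chosen by gene symbol, with earlier results of these data known. All 10 were in both libraries, out of 29217 genes listed in either. UMIs (unique molecular identifiers, each marking 1 captured RNA molecule) were summed per cell class and library. The study made 2 single-cell libraries from Balb/c mice with the microfluidic Singleron GEXSCOPE kit, 1 titled positive and 1 titled control. The source of both is given as brain tissue, and both carry the molecular type TNBC, a triple-negative breast cancer. The treatment label gives 4T1 metastasis (4T1 is a mouse mammary carcinoma line) to the titled control library and no metastasis to the titled positive one, against the titles. The libraries are therefore named by title, and no direction with or without metastasis is drawn. The sources used here give neither age nor sex nor the number of mice behind each library.

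Fc gamma receptors bind the constant part of immunoglobulin G and let myeloid cells take up antibody-coated targets. The activating receptors pair with the common gamma chain, which recruits the kinase Syk, while Fcgr2b carries an inhibitory motif that recruits the phosphatase encoded by Inpp5d. In the brain these receptors are best known from microglia, the resident macrophages, and from macrophages of the borders. Ms4a genes encode small proteins that span the membrane several times. Ms4a4b is known from T cells, and Ms4a7 is a common marker of border macrophages as opposed to microglia in the mouse. The role of most other Ms4a proteins is less well defined.

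The members lie in clusters of related genes. In the GENCODE annotation of GRCm38, Fcgr2b, Fcgr4 and Fcgr3 lie within 106 kb of chromosome 1, between 170958617 and 171064935, and the 6 Ms4a genes within 284 kb of chromosome 19, between 11321039 and 11604849. Fcgr1 is alone on chromosome 3, between 96282909 and 96293969. Related genes can share reads: 9.58% of the 50-base stretches in Fcgr3 transcripts and 4.38% of those in Fcgr2b transcripts occur in another gene. The share was 10.5% for Ms4a6c, 8.19% for Ms4a4c, 3.57% for Ms4a6b, 2.54% for Ms4a6d, 2.40% for Ms4a4b, 0.306% for Ms4a7 and 0% for Fcgr1 and Fcgr4. How such reads were assigned, and whether strand was used, is not given here, so counts of Fcgr2b, Ms4a6b, Ms4a6c and Ms4a4c, which overlap genes of the opposite strand, are uncertain to that extent.

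Promoters are shown for Fcgr4 and Ms4a4c, the members that differed most between the libraries in microglia-like cells, and for Fcgr1, which differed little there. The sequences are from RefSeq on GRCm38.p6 and run from 250 bases before to 50 bases after the gene start, 5′ to 3′ on the gene's strand. Capitals mark matches to GAGGAA (a core bound by PU.1, a myeloid factor), TTCNNNGAA (a site of STAT factors) and the core of interferon response elements (GAAA, any 2 bases, GAAA), each searched on both strands. No match overlapped another in these windows. The Fcgr4 promoter lies at chr1:171018676-171018975 on the plus strand, that of Fcgr1 at chr3:96293920-96294219 on the minus strand, and that of Ms4a4c at chr19:11407411-11407710 on the plus strand.
Fcgr4: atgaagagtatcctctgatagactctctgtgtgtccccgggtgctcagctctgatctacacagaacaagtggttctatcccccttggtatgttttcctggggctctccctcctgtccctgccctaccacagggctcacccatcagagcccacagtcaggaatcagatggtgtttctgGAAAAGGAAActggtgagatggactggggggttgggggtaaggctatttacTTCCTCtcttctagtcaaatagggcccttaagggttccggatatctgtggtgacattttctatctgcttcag
Fcgr1: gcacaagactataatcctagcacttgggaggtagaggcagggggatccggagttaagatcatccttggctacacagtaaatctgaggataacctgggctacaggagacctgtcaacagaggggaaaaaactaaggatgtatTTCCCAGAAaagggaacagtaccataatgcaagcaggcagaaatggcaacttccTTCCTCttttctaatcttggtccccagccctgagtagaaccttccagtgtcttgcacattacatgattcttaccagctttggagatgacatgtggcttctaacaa
Ms4a4c: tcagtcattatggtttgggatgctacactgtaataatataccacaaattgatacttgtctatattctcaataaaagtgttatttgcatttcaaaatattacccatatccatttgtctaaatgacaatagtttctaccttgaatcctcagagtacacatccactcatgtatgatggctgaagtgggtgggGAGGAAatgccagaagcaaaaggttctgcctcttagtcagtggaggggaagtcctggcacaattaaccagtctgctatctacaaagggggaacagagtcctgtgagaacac
All of these windows hold GAGGAA on 1 of the strands, which is in 28.3% of 32851 mouse promoters of this length. The Fcgr4 window also holds the interferon response core, present in 3.44% of promoters, and that of Fcgr1 holds TTCNNNGAA, present in 8.30%. A match describes the letters only. Promoters were found for 9 of the 10 members. Of those not shown, the windows of Fcgr2b, Ms4a6b and Ms4a6c held no match to any of these letters. GAGGAA was in the windows of Fcgr3 and Ms4a4b and in a window of Ms4a7.

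After filters, 10537 cells of the titled positive library and 9806 of the titled control library were kept, with medians of 7288 and 4137 UMIs per cell. The members had 168366 UMIs in the titled positive library and 46042 in the titled control library. Cells were clustered without the members and their relatives and named from marker genes. Microglia-like cells numbered 649 (titled positive) and 2319 (titled control), and those like monocytes or macrophages 2238 and 137. Neutrophil-like cells numbered 243 and 10, and carcinoma-like cells 5895 and 2. Mixed clusters, kept out of every class, held 1.79% of titled positive and 3.94% of titled control cells, and 149 barcode sequences occurred in both libraries. With 1 library per group there is no replicate check on any difference, no test and no p-value. Each interval is a 95% interval that covers counting error only.

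The myeloid classes carried their markers, but at different strengths in the libraries. All 10 microglia markers had UMIs in microglia-like cells of both, with a summed level of 5470.1 CPM (the UMIs of a gene scaled to all UMIs of the class sum, on the usual CPM scale) in titled positive and 37338 CPM in titled control cells. P2ry12, a receptor specific to microglia in the brain, stood at 307 CPM in titled positive and 6699.5 CPM in titled control cells, and Sall1, a factor of microglial identity, at 44.9 and 252 CPM. Summed markers of monocytes or macrophages in these cells reached 2568 CPM in titled positive cells, with Lyve1 at 0, and 768 CPM in titled control cells, with Arg1 at 0. The class comes from cluster 9 in titled positive cells, and from cluster 28 with 33 cells of cluster 26.6 in titled control cells. In cluster 9, 8 of the 10 microglia markers were found in at least 20% of cells and above the median cluster, but 0 were among its 10 leading genes, which opened with Ccl12, Saa3 and C1qc. In cluster 28 the counts were 10 of 10, with 6 among the leading genes. The monocyte or macrophage-like class comes from clusters 5 and 6 among titled positive cells and mainly from clusters 26.1, 26.2 and 26.7 among titled control cells. A cluster that belongs to 1 library may mark that library rather than a cell type, and the classes of the libraries therefore cannot be taken as the same cells.

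**Figure D1:**
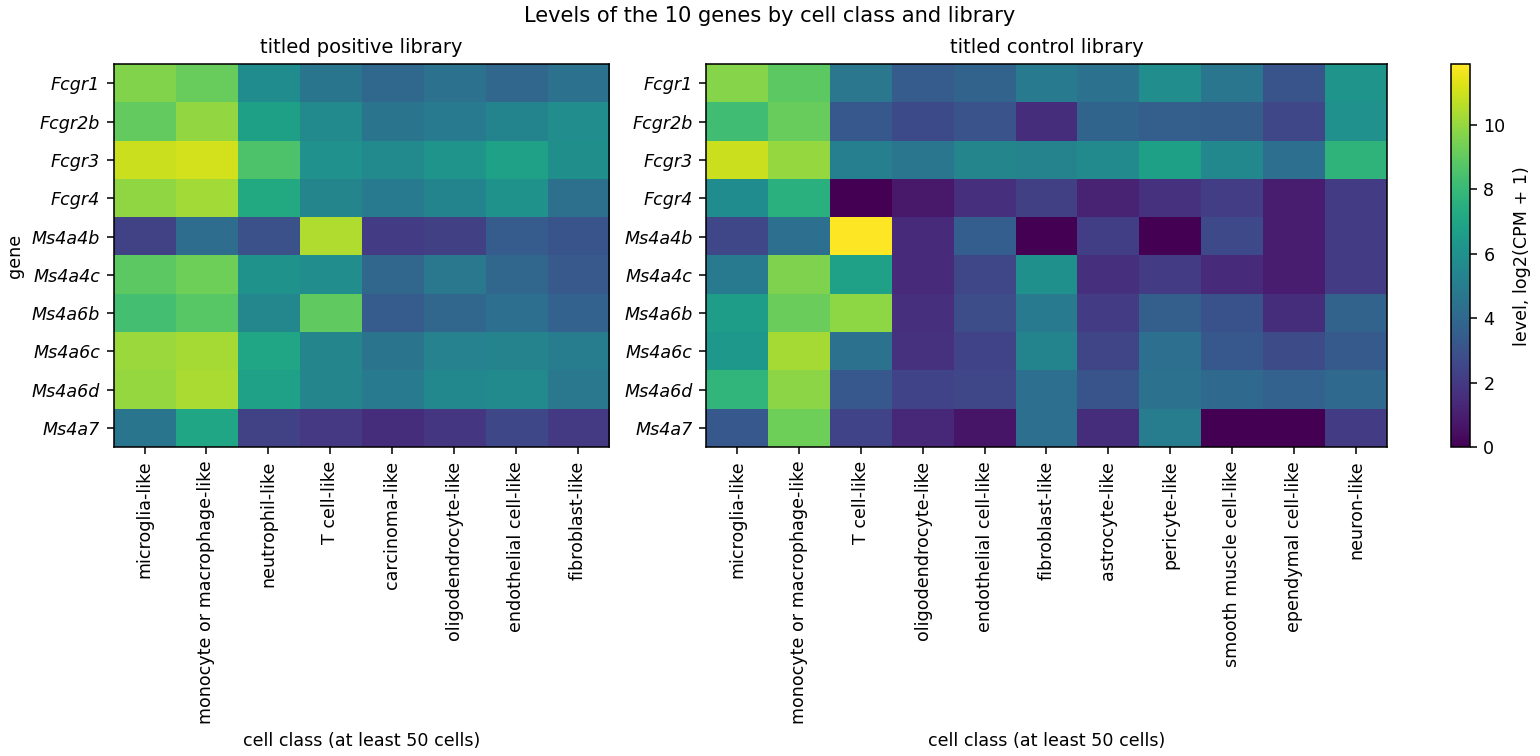
Levels of the 10 genes as log2(CPM + 1), by cell class of at least 50 cells (columns), in the titled positive library (left) and the titled control library (right). Fcgr genes and most Ms4a genes are brightest in the microglia-like and monocyte or macrophage-like columns, and Ms4a4b in the T cell-like columns.

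Most members were myeloid genes in both libraries. Over 19 sums of a class and a library with at least 50 cells, the 4 highest levels of Fcgr1, Fcgr2b and Fcgr3 were those of microglia-like and monocyte or macrophage-like cells, and so were those of Ms4a6d. Fcgr1, the high-affinity receptor, was highest in titled control microglia-like cells and lowest in ependymal cell-like cells of that library, with 833 and 7.59 CPM. Ms4a4b, the T cell member, had its highest levels in T cell-like cells, followed by monocyte or macrophage-like cells at under 20 CPM. Ms4a6b was shared between both lineages, with its highest level in titled control T cell-like cells. Neighbouring intervals overlapped for Fcgr3 between titled positive and titled control microglia-like cells, and for Ms4a6c between the monocyte or macrophage-like classes of the libraries.

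In microglia-like cells, 6 of the 10 members were at least 2-fold higher in the titled positive library, among them Fcgr4 and 5 of the 6 Ms4a genes, and 0 were at least 2-fold lower. Of all genes tested (those with at least 10 UMIs in the class sums together), 12.2% were at least 2-fold higher and 27.4% at least 2-fold lower. The median log2 ratio, titled positive over titled control, was 1.59 over the members and -0.37 over the 13812 genes tested. Genes with at least 50 UMIs in both sums had a median of -0.13, and relative to it the same 6 members were at least 2-fold higher. Fcgr1, Fcgr2b, Fcgr3 and Ms4a4b did not reach 2-fold. As the members were chosen with earlier results of these data known, their counts beside those of all genes only describe them.

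Fcgr4, the activating receptor that binds mouse IgG2a and IgG2b, differed most. Its level was 969 CPM (938 to 1002) in titled positive microglia-like cells and 54.2 CPM (49.3 to 59.4) in titled control ones, a log2 ratio of 4.16 (4.02 to 4.31). A UMI of Fcgr4 was found in 94.9% of titled positive cells (92.9 to 96.5) and in 11.2% of titled control cells (9.96 to 12.6). After thinning each cell to 1000 UMIs the shares were 55.2% and 4.66%. In cells that should lack the gene, a UMI was found in 25.9% of titled positive carcinoma-like cells (2.82% thinned) and 0.469% of titled control oligodendrocyte-like cells (0.0276% thinned). Median depth was 4889 UMIs in titled positive and 3206 UMIs in titled control microglia-like cells, against 10242 UMIs in the carcinoma-like and 6213 UMIs in the titled control oligodendrocyte-like cells.

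The other Fc receptors stayed within 2-fold. Fcgr1 had 784 CPM (755 to 813) in titled positive and 833 CPM (813 to 853) in titled control microglia-like cells, with a log2 ratio of -0.09. Fcgr3, the low-affinity activating receptor, had 1927 CPM (1882 to 1972) in titled positive and 1969.7 CPM (1939.8 to 1999.9) in titled control cells, and the interval of its log2 ratio, -0.07 to 0.01, included 0. Fcgr2b, the inhibitory receptor, had 521 CPM (498 to 545) in titled positive and 304 CPM (292 to 316) in titled control cells, a log2 ratio of 0.78 (0.69 to 0.86). Relative to the median of all genes, the log2 ratios of Fcgr1 and Fcgr3 were 0.04 and 0.10, so neither has a direction that holds across scalings.

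Among the Ms4a genes, Ms4a4c was 16.3-fold and Ms4a6c 13.3-fold higher in titled positive microglia-like cells. Ms4a4c had 470.4 CPM (448 to 493) in titled positive and 28.9 CPM (25.3 to 32.7) in titled control cells, a log2 ratio of 4.02 (3.83 to 4.23). Ms4a6c had 1080.3 CPM in titled positive and 81.1 CPM in titled control cells, a log2 ratio of 3.73 (3.62 to 3.85). A UMI of Ms4a6c was found in 96.8% of titled positive and 14.6% of titled control cells, and in 65.6% and 5.35% after thinning. In the classes that should lack it, the carcinoma-like and the titled control oligodendrocyte-like cells, the shares were 21.1% (2.66% thinned) and 1.41% (0.221% thinned). Ms4a6d followed with 1023 CPM in titled positive and 226 CPM in titled control cells (log2 ratio 2.18, 2.10 to 2.26), and Ms4a6b with 325 and 99.0 CPM (1.71, 1.59 to 1.84). A UMI of Ms4a6d was found in 44.1% of titled control microglia-like cells (17.5% thinned), against 2.84% (0.496% thinned) of oligodendrocyte-like cells there. For Ms4a6b the shares were 23.7% (7.93% thinned) and 1.32% (0.221% thinned).

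Ms4a7 was low in microglia-like cells of both libraries. It had 23.7 CPM (18.97 to 29.3) in titled positive and 8.55 CPM (6.69 to 10.8) in titled control microglia-like cells, a log2 ratio of 1.47 (1.00 to 1.94). A UMI was found in 7.86% of titled positive cells (2.16% thinned), against 1.95% (0.170% thinned) in carcinoma-like cells. Of titled control cells 1.16% had one (0.388% thinned), against 0.992% (0.221% thinned) of the deeper oligodendrocyte-like cells of that library, where the level was 1.62 CPM. With at most 10% mitochondrial UMIs the log2 ratio was -0.57. Cluster 26.6, which holds 33 of the titled control cells, had 149.8 CPM of Ms4a7 on its own. Ms4a4b stood at 3.86 CPM in titled positive and 4.75 CPM in titled control cells, from 14 and 40 UMIs.

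**Figure D2:**
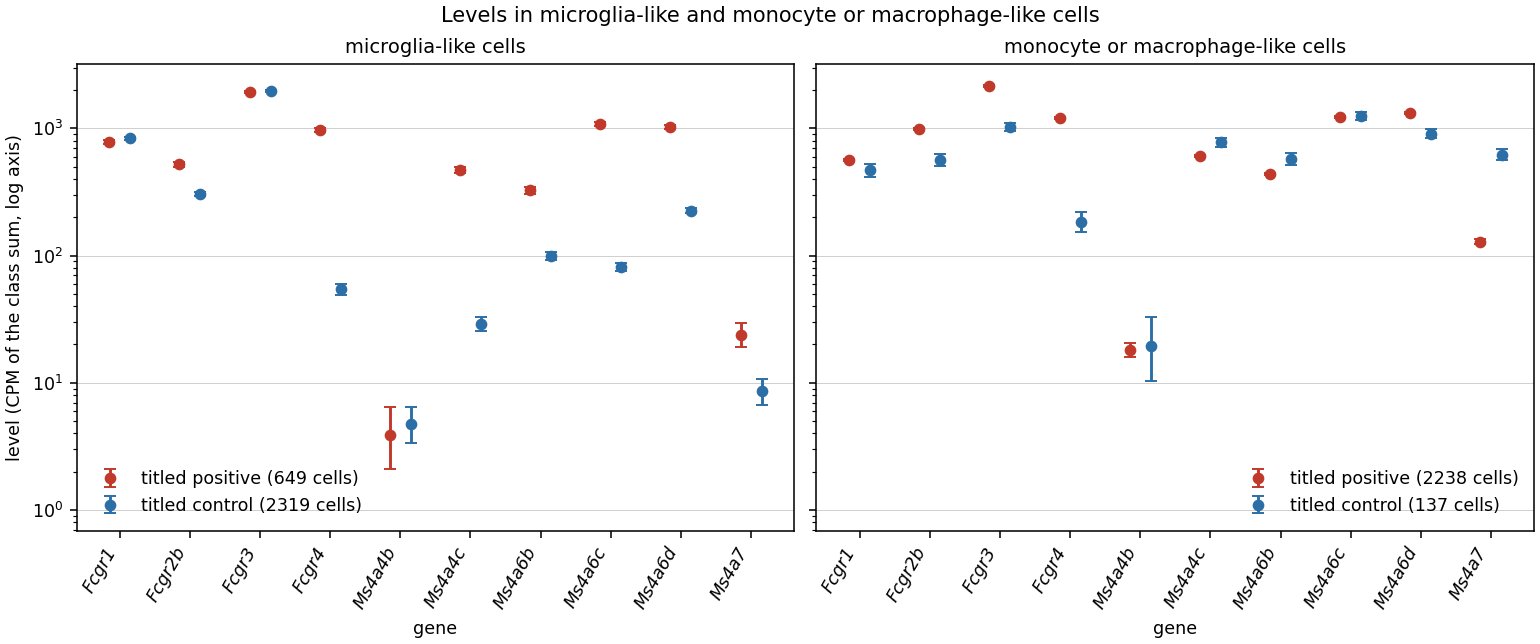
Level of each gene (CPM of the class sum, log axis) in microglia-like cells (left panel) and monocyte or macrophage-like cells (right panel), with titled positive in red left of titled control in blue. Bars are exact Poisson 95% intervals of counting error. Fcgr4 and the Ms4a4c to Ms4a6d genes stand apart between the libraries in microglia-like cells, while in monocyte or macrophage-like cells Fcgr4 and Ms4a7 stand apart most, in opposite directions.

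The members' levels in microglia-like cells were next set against those of the macrophage-like cells of the same library. Levels in microglia-like cells, as a share of those in monocyte or macrophage-like cells, ran from 18.5% (Ms4a7) to 139% (Fcgr1), and their median was 77.7% over 9 members without Ms4a4b. In the titled control library the same shares ran from 1.37% (Ms4a7) to 193% (Fcgr3) with a median of 24.9%. The share for Fcgr4 was 80.6% (titled positive) and 29.4% (titled control), and for Ms4a6c 87.8% and 6.51%. Several genes that mark monocytes or macrophages had lower shares: in titled positive microglia-like cells Arg1 (arginase) was at 3.29% of its level in monocyte or macrophage-like cells, Chil3 at 3.83%, Ly6c2 at 4.25% and Ccr2, a chemokine receptor of monocytes, at 6.19%. Others were nearer, such as Cybb, an oxidase gene of phagocytes, with 417 CPM in the microglia-like and 859 CPM in the monocyte or macrophage-like class of that library. The summed monocyte or macrophage markers lay at 17.1% of their level in that class in titled positive microglia-like cells. Lyz2 was the largest part of this sum, with 1735 CPM in these cells and 9335 CPM in the monocyte or macrophage-like class. The sum therefore mostly follows 1 gene. The shares of 8 members were above 17.1%, and the interval of the share of Ms4a7, 14.8% to 22.9%, includes that value. In titled control microglia-like cells the summed markers lay at 2.11%, and Ms4a7 was below them at 1.37%.

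Of the 10 members in monocyte or macrophage-like cells, 2 (Fcgr3 and Fcgr4) were at least 2-fold higher in the titled positive library and 1 (Ms4a7) was at least 2-fold lower. Among the 13443 genes tested, 12.2% were at least 2-fold higher and 23.2% at least 2-fold lower. The median log2 ratio was 0.12 over the members and -0.24 over all genes tested, and genes with at least 50 UMIs in both sums had a median of -0.17. The titled control class held 137 cells, so its intervals are wider.

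Fcgr4 had 1203 CPM (1185 to 1222) in titled positive and 184 CPM (153 to 220) in titled control monocyte or macrophage-like cells, a log2 ratio of 2.70 (2.45 to 2.97). Fcgr3 had 2151 CPM in titled positive and 1021 CPM in titled control cells, a log2 ratio of 1.07 (0.97 to 1.19). That ratio lay at the limit of the call, and as a mean over cells it was 0.96. Fcgr2b had 993 CPM in titled positive and 565 CPM in titled control cells (log2 ratio 0.81, 0.67 to 0.97), and Fcgr1 564 and 468 CPM (0.27, 0.11 to 0.44). All 4 receptors were thus higher in the titled positive class, 2 of them by at least 2-fold.

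Most Ms4a genes stayed within 2-fold in this class. Ms4a6c had 1229.85 CPM in titled positive and 1247 CPM in titled control cells, and its log2 ratio of -0.02 had an interval of -0.12 to 0.08. Ms4a6d had 1317 CPM in titled positive and 905 CPM in titled control cells (log2 ratio 0.54), Ms4a4c 609 and 777 CPM (-0.35), and Ms4a6b 438 and 575 CPM (-0.39). Ms4a4b rested on 254 UMIs in the titled positive and 13 UMIs in the titled control class. The exception was Ms4a7, with 128 CPM (122 to 134) in titled positive and 623 CPM (564 to 685) in titled control cells, a log2 ratio of -2.28 (-2.44 to -2.12). A UMI of Ms4a7 was found in 26.7% of titled positive and 41.6% of titled control cells, and in 9.65% and 29.9% after thinning.

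The makeup of the class differed between the libraries along with Ms4a7. Ms4a7 in the titled control library was carried mainly by cluster 26.2, at 1604 CPM, while clusters 26.1 and 26.7 had 68.7 and 0 CPM. Mrc1, Pf4 and Cbr2, genes of border macrophages, stood at 236, 82.6 and 4.52 CPM in titled positive and at 771, 721 and 395 CPM in titled control monocyte or macrophage-like cells. Arg1 had 1702 CPM in titled positive and 16.3 CPM in titled control cells, and Ly6c2, a monocyte gene, had 1303 and 2325 CPM. Their part in the ratios of the class was not tested.

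Clustering the myeloid cells of each library on their own showed where within the classes each gene was high. The titled positive library gave 14 sub-clusters and the titled control library 10, of which 10 and 10 held at least 50 cells. They are numbered with P or C and identified here by their leading genes only. Leading genes were ranked against all other myeloid cells of both libraries together.

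**Figure D3:**
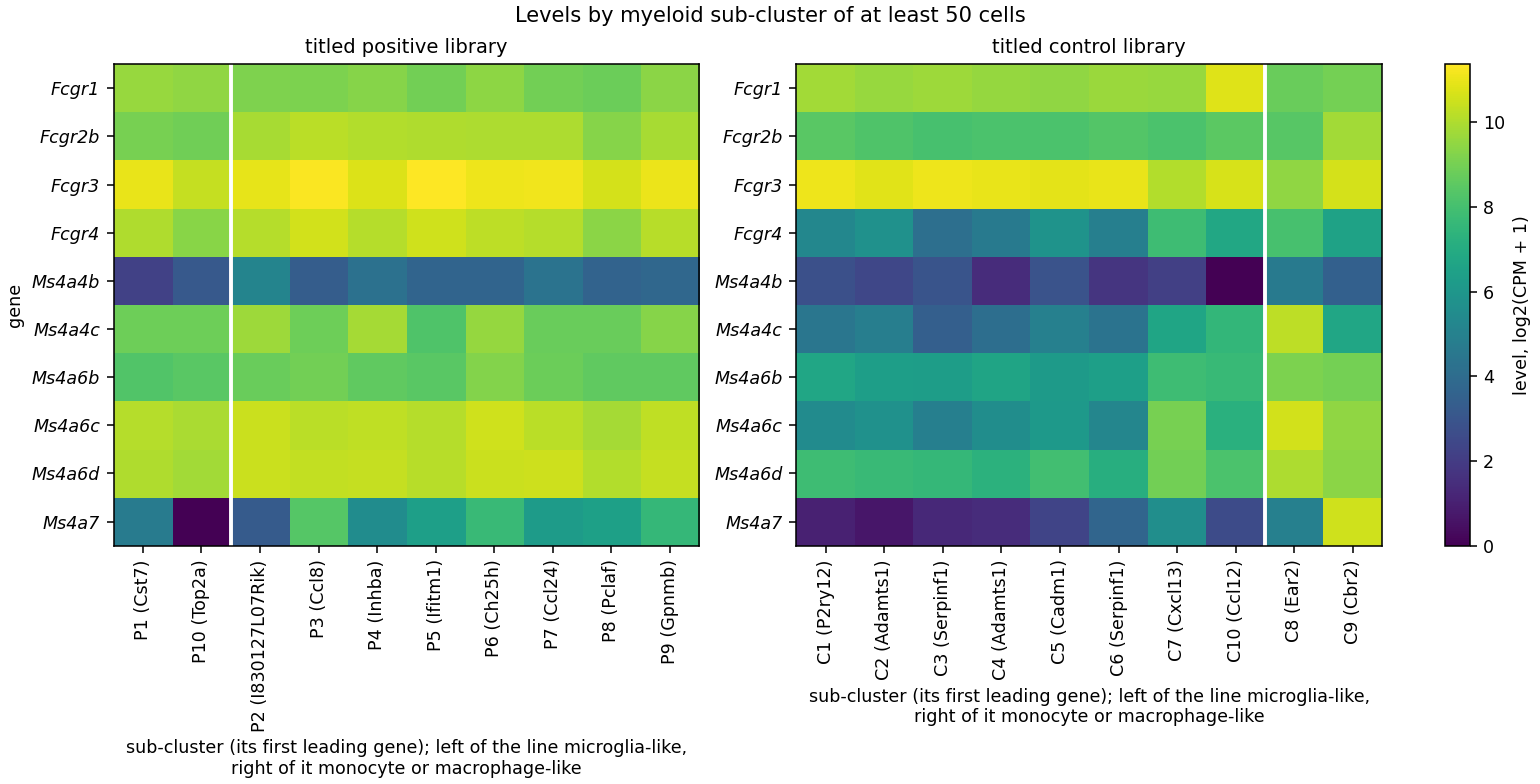
Levels as log2(CPM + 1) by myeloid sub-cluster of at least 50 cells in the titled positive library (left) and the titled control library (right). Microglia-like sub-clusters stand left of the white line. Ms4a7 is brightest in sub-cluster C9 and Ms4a4c in C8 of the titled control library, and Fcgr4 is high in all titled positive columns.

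Ms4a7 varied most among sub-clusters. Over the 8 monocyte or macrophage-like sub-clusters of at least 50 cells among titled positive cells, it ran from 8.64 CPM in P2 (led by I830127L07Rik, Gm5960 and Mmp8) to 329 CPM in P3 (led by Ccl8, Vcam1 and Dnase1l3), a 38.0-fold range. The microglia-like sub-cluster P10, of 76 cells, had 0 CPM. A level of 5.998 CPM would take 3 counts there. In P2, 7 of 8 monocyte markers were found in at least 20% of cells and above their level elsewhere. Elsewhere means all other myeloid cells of both libraries together, not those of the same library. By the same rule, P3 had 2 of 8 border macrophage markers. These counts were not particular to P2 and P3. P4 and P9 (led by Gpnmb, Ins2 and Mmp12) also had 7 of 8 monocyte markers. Border macrophage markers met the rule more often in P6 (led by Ch25h, Ccl7 and F13a1) and P9, with 3 of 8 each. In P7 (led by Ccl24, Adamdec1 and Mmp9) 4 of 8 did. In the titled control library Ms4a7 had 1494 CPM in C9 (led by Cbr2, Pf4 and Pltp), where 8 of 8 border macrophage markers met the same rule. It had 30.02 CPM in C8 (led by Ear2, Eno3 and Ifitm6). Mrc1, the mannose receptor, was at 436 CPM in P3 and 1839 CPM in C9, and Pf4 at 86.8 and 1659.6 CPM. The Ms4a7 level of P3, the highest among titled positive sub-clusters, was below that of C9.

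Ms4a4c took nearly the opposite places. Among sub-clusters of at least 50 cells it was highest in titled control C8, with 1193 CPM, while C9 had 107 CPM. Of the titled positive monocyte or macrophage-like sub-clusters, P4 (led by Inhba, Cxcl11 and Nos2) and P2 were highest, at 908 and 843 CPM, and P5 (led by Ifitm1, Klrb1b and Mmp12) lowest, at 305 CPM. A small sub-cluster of 31 cells, P11, led by the interferon-induced genes Slfn4, Isg15 and Cxcl10, had 2322 CPM of Ms4a4c and 1252 CPM of Fcgr1, above every larger titled positive sub-cluster in both genes.

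Fcgr4 was high in every titled positive sub-cluster of at least 50 cells, from 648 CPM in P10 (microglia-like, led by the cycling genes Top2a, Ube2c and Mki67) to 1529 CPM in P3. The lowest of the monocyte or macrophage-like ones was P8, at 684 CPM, also led by cycling genes (Pclaf, Ube2c and Nusap1). P8 was also lowest for Fcgr1, Fcgr2b, Fcgr3, Ms4a6c and Ms4a6d, and had a summed level of carcinoma markers of 2053 CPM and a median of 9399 UMIs per cell, both the highest among these sub-clusters. In the titled control library all 8 microglia-like sub-clusters lay lower, from 16.6 to 231 CPM, and C8 and C9 had 268 and 93.2 CPM. The ranges of Fcgr4 in these sub-clusters did not overlap between the libraries. Sub-clusters are parts of the same library and not replicates, so the lack of overlap is no replicate check on the difference. How often the ranges of other genes were likewise apart was not tested.

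Within titled control microglia-like cells, C7 and C10 stood apart. C7 (108 cells, led by Cxcl13, Cd72 and Ch25h) was highest of the 8 for Fcgr4 at 231 CPM, Ms4a6b at 226 CPM, Ms4a6c at 523 CPM, Ms4a6d at 501 CPM and Ms4a7 at 48.4 CPM. It was lowest for Fcgr3, at 1062 CPM, where the median of the 8 was 1972 CPM, and its P2ry12 level was 2216 CPM. C10 (51 cells, led by Ccl12, Ifi44 and Egr1) had the highest Fcgr1, at 1801 CPM against a median of 805 CPM, and the highest Ms4a4c, at 184 CPM. In C1, led by P2ry12, Ccr6 and Gpr34, Fcgr4 was at 37.9 CPM, Ms4a6c at 43.3 CPM and Ms4a7 at 1.07 CPM.

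The ratio of activating to inhibitory receptor UMIs (Fcgr1, Fcgr3 and Fcgr4 together over Fcgr2b) was read across classes and libraries, since the capture of each gene is shared. It was 7.06 (6.73 to 7.42) in titled positive and 9.39 (9.02 to 9.79) in titled control microglia-like cells. It was 3.94 (3.87 to 4.02) in titled positive and 2.96 (2.64 to 3.34) in titled control monocyte or macrophage-like cells. The parts differed: Fcgr4 over Fcgr2b was 1.86 in titled positive and 0.178 in titled control microglia-like cells, while Fcgr3 over Fcgr2b was 3.70 and 6.48. For the monocyte or macrophage-like class Fcgr4 over Fcgr2b was 1.21 in titled positive and 0.326 in titled control cells, with 0.787 in C8 and 0.104 in C9. Microglia-like cells thus had the higher activating ratio in both libraries, and the Fcgr4 part was the higher one in titled positive cells of both classes.

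**Figure D4:**
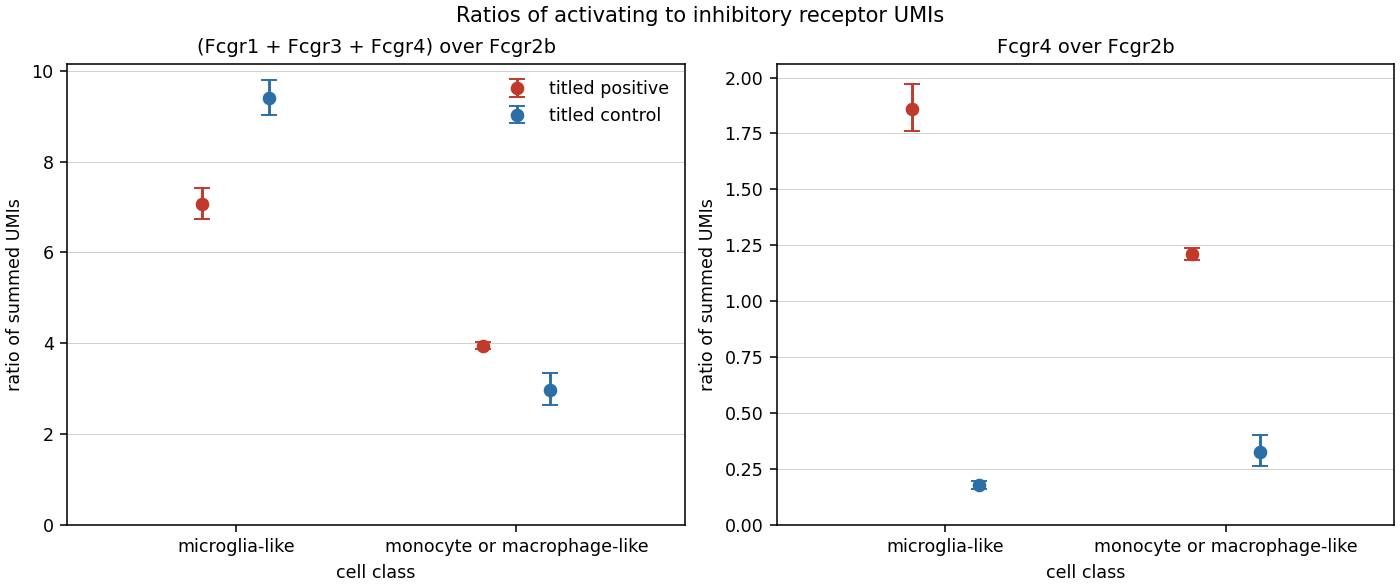
Ratios of summed UMIs by class, with titled positive in red left of titled control in blue, for the 3 activating receptors over Fcgr2b (left panel) and for Fcgr4 over Fcgr2b (right panel). Bars are exact 95% intervals of counting error. The full ratio is lower in titled positive than in titled control microglia-like cells (7.06 and 9.39), whereas the Fcgr4 ratio is higher (1.86 and 0.178).

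Single cells carried several members at once. The median microglia-like cell had a UMI of 8 members (titled positive) or 3 members (titled control), and the median cell of the monocyte or macrophage-like class one of 8 or 6. Thinned to 1000 UMIs, these medians were 4 and 2 in the microglia-like class, and 5 and 4 in the other. All 4 Fc receptors were found together in 77.5% of titled positive and 6.51% of titled control microglia-like cells. Thinned to 1000 UMIs, these shares were 13.4% and 0.604%. They were 82.8% of titled positive and 16.8% of titled control monocyte or macrophage-like cells, and 15.2% and 0% after thinning (0 of 137 cells).

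Lymphoid cells showed the other side of the Ms4a family. In T cell-like cells Ms4a4b had 1404.5 CPM (1316 to 1497) among titled positive and 3782 CPM (3538 to 4040) among titled control cells, a log2 ratio of -1.43 (-1.56 to -1.30). A UMI was found in 83.1% of 130 titled positive and 86.7% of 60 titled control cells, and in 58.5% and 76.7% after thinning. Ms4a6b had 512 CPM in titled positive and 920 CPM in titled control T cell-like cells (log2 ratio -0.85, -1.10 to -0.59). Natural killer cell-like cells, too few to compare, had 595 CPM (titled positive) and 1837 CPM (titled control) of Ms4a4b. The T cell-like class is held mostly by clusters 10.4 and 10.2 among titled positive cells and by 10.7 among titled control cells.

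Of the 9 members tested in T cell-like cells, 3 were at least 2-fold higher (Fcgr2b, Fcgr4 and Ms4a6d) and 2 at least 2-fold lower (Ms4a4b and Ms4a4c) in the titled positive library, where 13.7% and 13.4% of 7853 genes were. The higher ones were at low levels, with 33, 28 and 28 UMIs in the titled positive and 2, 0 and 2 UMIs in the titled control class. Their levels of 41.8 to 49.3 CPM in titled positive T cell-like cells compare with 29.5 to 46.3 CPM in oligodendrocyte-like cells of that library, and their UMIs were found in 15.4%, 15.4% and 16.9% of titled positive T cell-like cells, against 20.8%, 25.9% and 24.4% of the deeper carcinoma-like cells. Thinned, the shares were 3.08%, 1.54% and 4.62% of T cell-like and 2.39%, 2.82% and 3.21% of carcinoma-like cells, whose levels were 22.6, 28.8 and 27.7 CPM. Median depth was 4468 UMIs in these T cell-like and 10242 UMIs in carcinoma-like cells. Ms4a4c rested on 37 UMIs in titled positive and 26 UMIs in titled control T cell-like cells, and its log2 ratio of -1.01 became 0.053 with each cell named by its own markers.

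Classes that should lack these genes also held UMIs of the members. In the titled positive library, carcinoma-like cells had between 1.48% (Ms4a7) and 2.61% (Fcgr1) of the monocyte or macrophage-like level, and the median over 9 members without Ms4a4b was 2.29%. Oligodendrocyte-like cells of that library had between 2.11% (Ms4a7) and 4.25% (Ms4a4c), with a median of 3.29%. Fcgr4 over Fcgr2b was 1.27 in carcinoma-like and 1.34 in oligodendrocyte-like cells, and 1.21 in the monocyte or macrophage-like class. In titled control oligodendrocyte-like cells the members lay at 0.176% to 2.38% of the level in monocyte or macrophage-like cells, and at 1.20% to 18.98% of that in microglia-like cells. Neuron-like cells of that library reached 20.6% of the monocyte or macrophage-like level for Fcgr3 (211 CPM, 66 cells), and pericyte-like cells 11.96% for Fcgr1 (56.0 CPM).

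Counts of members past 2-fold in other classes rest on these low levels. In oligodendrocyte-like cells 9 of 10 members were at least 2-fold higher and 0 lower in the titled positive library, with 16.5% of genes tested higher and 18.6% lower. In endothelial cell-like cells 7 of 9 members tested were higher and 0 lower (10.6% and 19.1% of genes), and in fibroblast-like cells 2 of 9 were higher and 3 lower (15.6% and 22.4%). The largest of these levels in the titled positive library was 111 CPM, of Fcgr3 in endothelial cell-like cells.

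**Figure D5:**
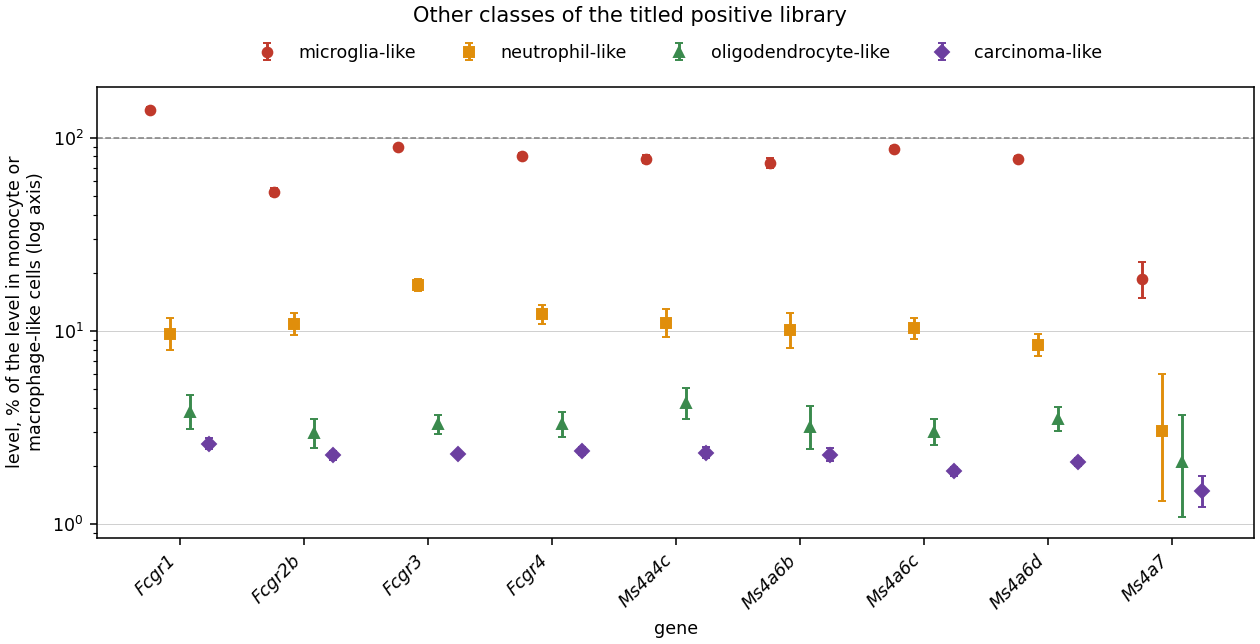
Levels of 9 members in other classes of the titled positive library, as a percentage of the level in monocyte or macrophage-like cells (log axis). Bars are 95% intervals of counting error. Carcinoma-like and oligodendrocyte-like cells lie in a narrow band of 1.48% to 4.25%, neutrophil-like cells mostly near 10.3% with Fcgr3 at 17.4%, and microglia-like cells between 52.4% and 139% except for Ms4a7 at 18.5% (the dashed line marks 100%).

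Neutrophil-like cells of the titled positive library lay above that band for 8 of the 9 members, all but Ms4a7. Their members had 3.04% (Ms4a7) to 17.4% (Fcgr3) of the monocyte or macrophage-like level, with a median of 10.3%. Fcgr3 had 374 CPM (348 to 401) and was found in 82.7% of 243 cells (34.2% thinned), and Fcgr4, a receptor known from mouse neutrophils, had 147 CPM (131 to 165) and was found in 55.1% (14.0% thinned), against 25.9% (2.82% thinned) in carcinoma-like cells. Markers of monocytes or macrophages summed to 3955 CPM in these cells, 26.3% of their level in monocyte or macrophage-like cells, and carcinoma markers to 48.3% of their level in carcinoma-like cells. Their part in the neutrophil-like levels was not tested.

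Of the partners of Fc receptors, the shared gamma chain Fcer1g had 2879.7 CPM in titled positive and 1831 CPM in titled control microglia-like cells (log2 ratio 0.65), and 3413 and 3773 CPM in monocyte or macrophage-like cells (-0.14). Among 18 signalling genes tested in microglia-like cells, 1 was at least 2-fold higher (Vav3, from 11 and 8 UMIs) and 2 at least 2-fold lower in the titled positive library. These were the kinases Syk, with 44.1 CPM in titled positive and 102 CPM in titled control cells, and Src, with 8.27 and 21.4 CPM. The list had a median log2 ratio of -0.12. For the monocyte or macrophage-like class 0 of the 18 were higher and 2, Fgr and Lat2, lower, with a median of -0.46. Inpp5d, the phosphatase on the inhibitory side, had 142 CPM in titled positive and 269 CPM in titled control microglia-like cells (log2 ratio -0.92).

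Other Fc receptors and Fc receptor-like genes were few. Of 5 tested in microglia-like cells 0 were at least 2-fold higher and 1 lower, with a median log2 ratio of 0.32. That 1 was Fcrls, a gene of mouse microglia, with 4.96 CPM in titled positive and 429 CPM in titled control cells, a log2 ratio of -6.39 (-7.19 to -5.77). Fcrls was likewise lower in the other myeloid class, with 1.29 CPM in titled positive and 413 CPM in titled control monocyte or macrophage-like cells (-8.28). Of the 8 tested there, 3 were called lower (Fcgrt, Fcrls and Fcrl1) and 3 higher (Fcrla, Fcrlb and Cd247), the latter all from 0 UMIs in the titled control class. Cd247, though on this list, encodes a signalling chain and not an Fc receptor. With a floor of 3 counts per class sum in place of 0, 0 of the 3 called higher reach 2-fold, and the median is -0.07 instead of 0.24. Fcgrt, the neonatal receptor that recycles immunoglobulin G, had 112 CPM in titled positive and 406 CPM in titled control monocyte or macrophage-like cells (-1.86).

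Further genes of the Ms4a family were listed with 2 relatives, Tmem176a and Tmem176b. In microglia-like cells 4 were tested. The 2 Ms4a genes among them (Ms4a4a and Ms4a8a) were at least 2-fold higher and the 2 relatives lower, with a median of 1.46. Ms4a8a had 377.7 CPM in titled positive and 44.6 CPM in titled control monocyte or macrophage-like cells, a log2 ratio of 3.06 (2.57 to 3.65). It had 51 UMIs in titled positive and 0 UMIs in titled control microglia-like cells, at least 39.5-fold higher against a floor of 3 counts per class sum. Tmem176a had 179 CPM in titled positive and 613 CPM in titled control microglia-like cells (-1.78), and its homologue Tmem176b 306 and 989.7 CPM (-1.70). The monocyte or macrophage-like class gave log2 ratios of -2.35 and -2.25. Of 6 genes of this list tested there, 2 were higher (Ms4a3 and Ms4a8a, the first from 0 UMIs in titled control cells). The 3 lower ones included Tmem176a and Tmem176b, and the median was -0.57, or -0.70 with the floor.

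Immunoglobulins, whose IgG class is the ligand of the receptors, came next. Of 6 immunoglobulin genes tested in microglia-like cells, the joining chain Jchain among them, 0 were at least 2-fold higher and 6 lower in titled positive. Their median log2 ratio was -1.90. Ighg1, the only IgG gene tested, had 0 UMIs in titled positive and 68 UMIs in titled control microglia-like cells. Ighm, of immunoglobulin M, had 94.3 CPM in titled positive and 366 CPM in titled control microglia-like cells (-1.96), Ighd 3.03 and 15.8 CPM (-2.32), and Igkc, the kappa light chain, 10.2 and 23.3 CPM (-1.17). Among 7 tested in the monocyte or macrophage-like class 6 were lower, with a median of -2.45, and 1 was called higher, Igha, from 0 UMIs in titled control cells. Ighm had 9.32 CPM in titled positive and 245 CPM in titled control monocyte or macrophage-like cells (-4.72). Plasma cell-like cells numbered 5 (titled positive) and 14 (titled control). How much of the immunoglobulin UMIs in the myeloid classes was free RNA was not tested.

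Across the 19 class and library sums, the genes most like each member were sought among 12114 genes by Pearson's r of log2(CPM + 1). These sums share libraries and free RNA, so r only describes them. Fcgr1 was most like C1qc (r = 0.98), a complement gene, followed by Ctss and C1qb. Fcgr3 was most like Slc15a3 (0.97), with Tyrobp and Fcer1g, adaptor genes of myeloid receptors, next. Fcgr2b was most like Trpm2 (0.94) and Fcgr4 most like Cd300lf (0.96), then Il1b and Ccr1.

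The Ms4a genes mostly had other neighbours, though Ms4a6d shared Fcer1g with Fcgr3. Ms4a4b was most like Gimap3 (0.96), Prf1 and Trbc2, genes of lymphocytes, and Ms4a6b most like Phf11b (0.97), Ptprc and Lcp2. Ms4a4c was most like Ifi209 (0.93), Ms4a6c most like Ccl6 (0.95), Ms4a6d most like Fcer1g (0.95) and Ms4a7 most like Mrc1 (0.91). Between members, r was highest for Ms4a6c with Ms4a6d (0.97) and Fcgr1 with Fcgr3 (0.96), and near 0 between Ms4a4b and the Fc receptors, from -0.02 to 0.14. Between an Fc receptor and an Ms4a gene other than Ms4a4b, r ran from 0.58 (Fcgr4 with Ms4a6b) to 0.93 (Fcgr4 with Ms4a6d).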

How the data were processed

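The authors deposited raw UMI counts per gene and barcode for each library. Cell Ranger (no version) and the build GRCm38 are listed in the submitters' processing notes. How cells were called, which annotation was used and the strand setting are not stated here. Barcodes under 200 genes or over 20% mitochondrial UMIs were dropped (5 titled positive, 11 titled control), and doublets called by Scrublet in scanpy 1.11.5 were removed (300, or 2.77%, titled positive and 600, or 5.77%, titled control). The titled positive library held 98141261 UMIs in 10842 barcodes, and the titled control library 55657687 UMIs in 10417 barcodes. Leiden clustering at resolution 1 used 2000 variable genes, 30 principal components and 15 neighbours, without the members and their relatives (29 genes). Of 57 clusters and sub-clusters, 18 were mixed. A class name, out of 23 cell types with markers, needed a marker score of 1.5 (mean log2 ratio to the median cluster) and 3 detected markers, with thresholds for mixed clusters set after the clusters had been seen.

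UMIs were summed per class and library and scaled to CPM with exact Poisson intervals. Log2 ratios used a pseudocount of 0.5 counts and conditional exact binomial intervals, and shares have Clopper-Pearson intervals. A count of 100 has an interval of 81.4 to 122. The calculation of ratios and intervals was checked on simulated counts with Poisson error only. That simulation held no variation between cells or libraries and no free RNA, so it does not bear on those errors. Comparisons covered the 6 classes that reached 50 cells in both libraries. The members and lists were chosen with earlier results of these data known. Named were all members, up to 4 genes of each other list at least 4-fold different with at least 100 UMIs, the 3 genes most like each member among those with at least 500 UMIs, and the 3 leading genes of a sub-cluster. Other genes of the lists (Fcer1g, Syk, Src, Vav3, Fgr, Lat2, Inpp5d, Fcgrt, Fcrla, Fcrlb, Cd247, Fcrl1, Ms4a4a, Ms4a3 and Igha) and the levels of single marker genes and of Chil3 were given after their values had been seen. The same holds for Ighg1 and Jchain. In each library 10 sub-clusters had at least 50 cells. Of the Ms4a list, 5 of 14 genes were in neither gene list. Alternatives are in the closing section.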

Additional observations from a re-analysis of the deposited data

Results flagged for a closer look

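Ms4a4c had a log2 ratio (titled positive over titled control) of 4.02 in microglia-like cells and of -1.01 in T cell-like cells, opposite directions in different cell classes. The difference between the classes was not tested. The T cell-like value rests on 37 and 26 UMIs.

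Ms4a7 had a log2 ratio of 1.47 in microglia-like cells and of -2.28 in monocyte or macrophage-like cells. This difference was not tested either, and the microglia-like value rests on 86 and 72 UMIs.

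A signal of Fcgr2b appeared in astrocyte-like cells of the titled positive library, a class with too few cells to compare. Its level was 440.8 CPM (324 to 586) there, against 13.04 CPM in titled control astrocyte-like cells. The 47 UMIs came from 13 of 21 cells, with at most 9 in 1 cell, and Fcgr3 and Fcgr4 stood at 103 and 37.5 CPM in the same cells. Microglia markers summed to 4192.5 CPM there, 76.6% of their level in microglia-like cells, with Tmem119, Siglech, Gpr34 and P2ry13 at 0, and carcinoma markers to 2091.6 CPM, 18.7% of their level in carcinoma-like cells. Their part in the Fcgr2b level was not tested.

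Dendritic cell-like cells of the titled positive library, also too few to compare, had 276.9 CPM of Fcgr3 (198 to 377), from 40 UMIs in 15 of 31 cells. Fcgr3 stood at 2151 CPM in the monocyte or macrophage-like class of that library. Monocyte or macrophage markers summed to 2367.9 CPM in the dendritic cell-like cells, 15.8% of their level in that class, with Mrc1, Pf4, Cd163 and Lyve1 at 0. Their part in the Fcgr3 level was not tested.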

How the results depend on the processing

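Each ratio was recomputed under 14 alternatives, of which 1, the addition of clusters mixed between the microglia-like and monocyte or macrophage-like classes to their better-scoring class, was chosen after seeing the data. The number of members at least 2-fold higher in microglia-like cells was 5 or 6 under all of them, and Ms4a7 was the member lost, without doublet removal, at most 10% mitochondrial UMIs, at Leiden resolution 2 and with the mixed clusters added. The number at least 2-fold lower there was 1 (Ms4a4b) with cells thinned to 1000 UMIs and with free RNA subtracted at its estimated share, against 0 in the report. In monocyte or macrophage-like cells the number higher was 1 (Fcgr4) as a mean over cells of CPM per cell, and 3, with Fcgr2b, without doublet removal and with the mixed clusters added. The number lower was 1 throughout. The estimated share of free RNA was 14.6% in titled positive and 8.86% in titled control microglia-like cells.

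The log2 ratio of Ms4a7 in microglia-like cells was -0.57 at most 10% mitochondrial UMIs. That of Ms4a4c in T cell-like cells was 0.053 with each cell named by its own markers. The cause was not tested. The log2 ratio of Fcgr4 ranged from 4.01 to 4.34 in microglia-like and from 2.35 to 2.96 in monocyte or macrophage-like cells. In microglia-like cells the Ms4a genes called higher beside Ms4a7 also had their lowest ratios with at most 10% mitochondrial UMIs. These were 3.62 (Ms4a4c), 3.07 (Ms4a6c), 1.94 (Ms4a6d) and 1.53 (Ms4a6b). Their highest ratios under any alternative were 4.18, 4.02, 2.31 and 1.97. At least 500 genes per barcode left out no further barcode. No paired analysis was possible because each group has 1 library.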

Other observations

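Mixed clusters of the titled control library, which entered no comparison, held some of the highest levels of the Ms4a genes. Cluster 26.0 (22 cells), with markers of both microglia and monocytes or macrophages, had 1843 CPM of Ms4a7, 2141 CPM of Ms4a6c and 2203 CPM of Ms4a6d. Cluster 26.4 (53 cells) had 1020.3 CPM of Ms4a7 and 510.2 CPM of Fcgr2b. In pericyte-like cells of the same library Ms4a7 had 31.4 CPM, but all 28 UMIs came from 1 of 204 cells.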
